A study of Homo sapiens with 16 samples.

Results

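TXNRD1, the gene of cytosolic thioredoxin reductase, and 8 further genes of the antioxidant defence driven by the transcription factor NRF2 were followed through the RNA and the ribosome footprints of 4 breast cancer cell lines. The 9 genes are TXNRD1, TXN, PRDX1 and SRXN1 of the thioredoxin and peroxiredoxin branch, GCLC and GCLM of glutathione synthesis, NQO1 and HMOX1 of quinone and haem metabolism, and NFE2L2, which encodes NRF2 itself. They were chosen by symbol after the listed transcripts were matched to GENCODE version 44 on hg38. Of the 9, 8 were found among the 10799 transcripts listed for MDA-LM2 and MDA-Par, and the same 8 among the 8980 listed for MDA-sgHNRNPC and MDA-sgCTRL. GCLC matched no listed transcript in either table. All 8 passed the minimum for testing, a mean value of 10 in RNA and in footprints, in the first table, and 6 passed it in the second, where HMOX1 and SRXN1 fell short in footprints. TXNRD1 was named with its lower RNA in both comparisons already known, so its changes are given as a description, with intervals and without p-values.

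The 4 lines all derive from MDA-MB-231, an established triple receptor negative breast cancer line that metastasises poorly. MDA-Par is the parental line, and MDA-LM2 its derivative that metastasises strongly to the lungs. MDA-sgCTRL and MDA-sgHNRNPC are parental cells that carry CRISPR interference, a dCas9-KRAB repressor, with a control guide or a guide against HNRNPC, an RNA-binding protein with a preference for runs of U. No drug or oxidant was applied to any of them, as far as the labels say. The first question was how translation differs between strongly and poorly metastatic cells, and the second what loss of HNRNPC does to it. For each line there were 2 lysates, each giving an RNA library and a library of ribosome-protected footprints (RPF), hence 16 libraries in 8 groups of 2. The labels number the replicates but do not say that they came from separate cultures, so p-values measure only the spread between these samples. In bulk lysates, fewer expressing cells and less RNA per cell cannot be told apart.

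The values are read counts that the authors scaled within each kind of library, so they are linear and normalised, and the tables were scaled separately. RNA values were whole multiples of 1 step per library (100% of them within 0.01 of a step), and the listed transcripts added up to 7517953 to 8193031 steps in the first table and 5141959 to 6164753 in the second. A step would be 1 read, but since the lowest value listed was 5 or 6 steps this was not settled, and the full library sizes are unknown. The depth of the footprint libraries is unknown. Their summed values were 650736 to 679726 in the first table and 158011 to 167928 in the second, so low footprint values are less precise in the second. HNRNPC RNA, the check of the knockdown, was 2162 and 2146 in the MDA-sgCTRL libraries and 1147 and 1183 in the MDA-sgHNRNPC libraries, 54.1% of control. The mesenchymal markers VIM, CD44, AXL and FN1 were present at high RNA values in both tables, ESR1, PGR and CDH1 were not listed, EPCAM was low but listed (31.9 to 46.5 in the first table, 50.7 to 86.9 in the second), and ERBB2 was listed at 708 to 812 in the first table and 127 to 180 in the second.

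NRF2 is held at low levels by KEAP1, which presents it for degradation, and it accumulates when reactive electrophiles or oxidants modify KEAP1. With a small MAF partner it then binds antioxidant response elements and raises the transcription of enzymes that make or use reduced thioredoxin, glutathione and NADPH, while BACH1 represses some of the same genes. Because this defence protects tumour cells in the oxidative conditions of the bloodstream and lung, it has been studied widely in metastasis.

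TXNRD1 is a flavoprotein that uses NADPH to reduce thioredoxin, and it is a selenoprotein, in which a UGA codon near the end of the reading frame is read as selenocysteine instead of as a stop. The listed transcript, ENST00000525566, lies on the plus strand at chr12:104215779-104350307 of hg38, with 17 exons and 3860 bases, 1950 of them coding. Its selenocysteine codon is codon 648 of 650, the stop included, in exon 17 of 17, at chr12:104348413-104348415. The codon is shown in capitals within its 27-base surroundings at chr12:104348401-104348427. The footprint values are totals per transcript, so they do not show how ribosomes read this codon.
TXNRD1 selenocysteine codon: caggctggctgcTGAggttaagcccca

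TXNRD1 RNA was 2011 and 1935 in the MDA-Par libraries and 1278 and 1374 in the MDA-LM2 libraries. Both MDA-LM2 libraries were below both MDA-Par libraries, and the mean was 67.2% of the parental mean. The difference was -0.57 on the log2(value + 1) scale, with a standard error of 0.11 and a 95% interval of -0.83 to -0.32. TXNRD1 footprints were 209 and 265 in MDA-Par and 169 and 174 in MDA-LM2, again without overlap, at 72.2% of the parental mean. The footprint difference was -0.46 on the same scale, with an interval of -0.70 to -0.21, and -0.29 without the second MDA-Par lysate. Translation efficiency (TE), the ratio of footprints to RNA, was -3.26 and -2.86 in MDA-Par and -2.91 and -2.98 in MDA-LM2 as a log2 ratio. The lines overlapped, and the TE difference was 0.12 with an interval of -0.27 to 0.50.

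In the knockdown, TXNRD1 RNA was 2307 and 2138 in the MDA-sgCTRL libraries and 1809 and 1791 in the MDA-sgHNRNPC libraries. The groups did not overlap, and the knockdown mean was 81.0% of control, a difference of -0.30 (95% interval -0.40 to -0.21). TXNRD1 footprints were 66.3 and 53.3 in MDA-sgCTRL and 54.9 and 52.9 in MDA-sgHNRNPC, so they overlapped. The footprint difference was -0.14 with an interval of -0.53 to 0.25, and the TE difference 0.16 with an interval of -0.21 to 0.54. The TE intervals include 0 in both comparisons.

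**Figure D1:**
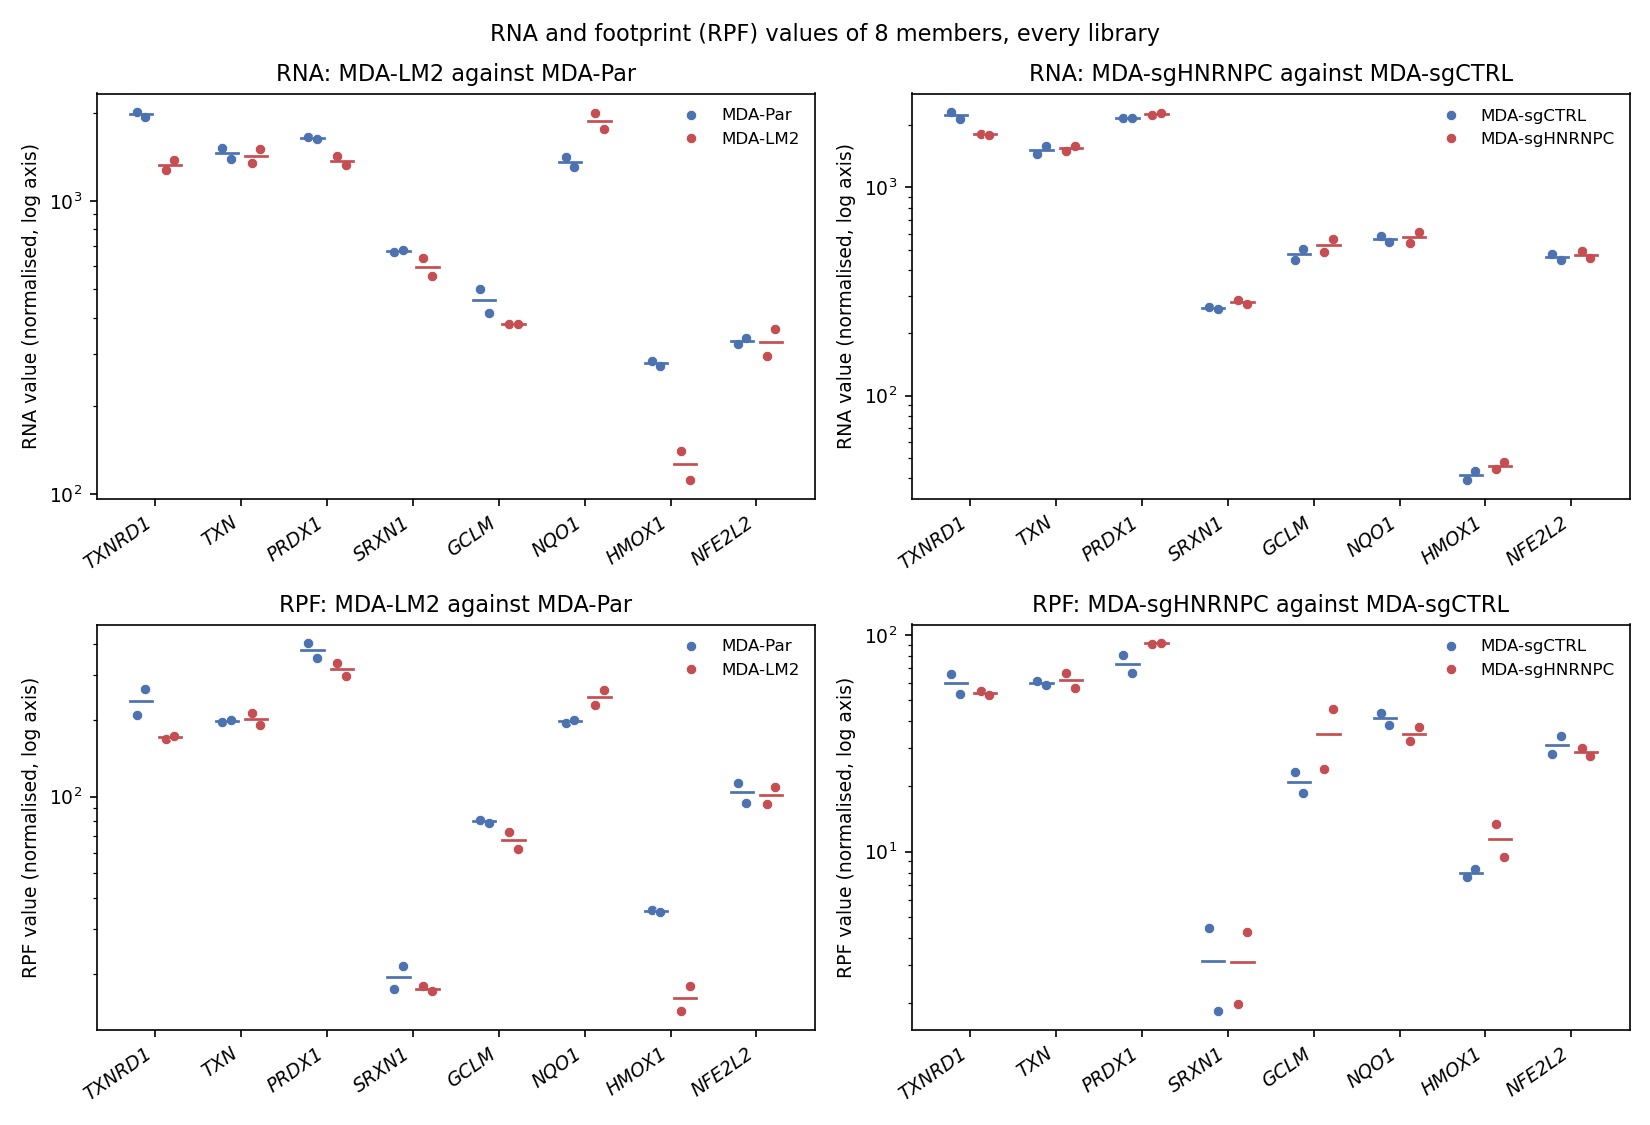
RNA values (top) and RPF values (bottom), normalised and on log axes, of the 8 members found, in MDA-Par and MDA-LM2 (left) and MDA-sgCTRL and MDA-sgHNRNPC (right). Points are single libraries and bars the means of 2. TXNRD1 RNA is lower in both test lines, at 67.2% and 81.0% of the control mean, and HMOX1 is at 45.2% (RNA) and 45.7% (RPF) in MDA-LM2.

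TXN is thioredoxin, the substrate of TXNRD1 and the electron donor of the peroxiredoxins. TXN RNA was 1516 and 1394 in MDA-Par and 1351 and 1502 in MDA-LM2, and its footprints were 197 and 200.3 against 214 and 191. The lines overlapped in both measures. The RNA difference was -0.03 (95% interval -0.30 to 0.24, limma adjusted p = 0.886), and it turned to 0.14 with libraries rescaled to equal totals. In the knockdown table, TXN RNA was 1443 and 1587 in MDA-sgCTRL and 1494 and 1590 in MDA-sgHNRNPC, with a difference of 0.03 and an interval of -0.07 to 0.13. Its footprints, 61.2 and 58.8 against 66.7 and 56.9, also overlapped.

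PRDX1 is a peroxiredoxin that reduces hydrogen peroxide with electrons from thioredoxin. PRDX1 RNA was 1656 and 1631 in MDA-Par and 1419 and 1322 in MDA-LM2, and its footprints were 402 and 352 against 334 and 299. Both measures were lower in both MDA-LM2 libraries, at 83.4% and 83.9% of the parental mean. Neither passed the test, with changes of -0.26 (95% interval -0.52 to -0.01, limma adjusted p = 0.144) and -0.25 (-0.46 to -0.04, limma adjusted p = 0.112). The RNA change passed without the first MDA-LM2 lysate (-0.31, limma adjusted p = 0.000834) and without the second (-0.21, limma adjusted p = 0.0409). In the knockdown table, PRDX1 RNA was 2149 and 2145 against 2219.8 and 2282 in MDA-sgHNRNPC, and its footprints were 80.5 and 66.5 against 91.3 and 91.9. The knockdown libraries were higher in both measures, and neither difference passed (RNA 0.07, limma adjusted p = 0.336, footprints 0.32 with an interval of -0.03 to 0.67, limma adjusted p = 0.706).

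SRXN1 is sulfiredoxin, which repairs overoxidised peroxiredoxins. SRXN1 RNA was 669 and 682 in MDA-Par and 638 and 557 in MDA-LM2, with no overlap and a change of -0.18 (95% interval -0.46 to 0.10, limma adjusted p = 0.336), which passed without the first MDA-LM2 lysate (-0.28, limma adjusted p = 0.0137). Its footprints were 17.5 and 21.6 against 17.9 and 17.1, close to the minimum for testing, and overlapped. After the knockdown, SRXN1 RNA was 265 and 261 in MDA-sgCTRL and 287 and 274 in MDA-sgHNRNPC, while its footprints were 4.42 and 1.83 against 1.97 and 4.24. Footprint values this low gave a 95% interval of -1.39 to 1.40 in the fit without a minimum, so no difference was detectable.

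GCLM is the modifier subunit of glutamate-cysteine ligase, which catalyses the first step of glutathione synthesis. GCLM RNA was 502 and 415 in MDA-Par and 379.6 and 379.5 in MDA-LM2, and its footprints were 81.0 and 78.9 against 72.5 and 62.0. Both measures were lower in both MDA-LM2 libraries, and neither passed the test (RNA -0.26, limma adjusted p = 0.213, footprints -0.25, limma adjusted p = 0.363), RNA passing without the first MDA-LM2 lysate (-0.26, limma adjusted p = 0.0365). For the knockdown, GCLM RNA was 447 and 507 against 491 and 563 in MDA-sgHNRNPC and overlapped. GCLM footprints were 23.3 and 18.7 in MDA-sgCTRL and 24.1 and 45.3 in MDA-sgHNRNPC, a change of 0.64 (95% interval 0.07 to 1.21, limma adjusted p = 0.565) that rests on the second MDA-sgHNRNPC library. Without the first MDA-sgHNRNPC lysate the change was 1.08 and passed (limma adjusted p = 0.0221), and without the second it was 0.20 (limma adjusted p = 0.937).

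NQO1 reduces quinones with NADPH or NADH and is among the most widely used readouts of NRF2. NQO1 RNA was 1415 and 1305 in MDA-Par and 1992 and 1757 in MDA-LM2, higher in both MDA-LM2 libraries. It rose by 0.46 (standard error 0.12, 95% interval 0.18 to 0.74, limma adjusted p = 0.0415), to 138% of the parental mean. The call was lost without the first MDA-Par library (0.52, limma adjusted p = 0.282) and without the second (0.40, limma adjusted p = 0.412). NQO1 footprints were 195 and 201 in MDA-Par and 229 and 262 in MDA-LM2, without overlap, and their change of 0.31 (95% interval 0.08 to 0.54) did not pass (limma adjusted p = 0.0734). It passed with libraries rescaled to equal totals (0.36, limma adjusted p = 0.0294) and without the first MDA-LM2 lysate (0.40, limma adjusted p = 0.0484). In the knockdown table, NQO1 RNA was 584 and 545 against 539 and 613 in MDA-sgHNRNPC. The lines overlapped in RNA, and the footprints, 43.7 and 38.6 against 32.5 and 37.6, were lower in both knockdown libraries, with a change of -0.23 (limma adjusted p = 0.839).

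HMOX1 is haem oxygenase 1, which breaks haem down to biliverdin, iron and carbon monoxide. HMOX1 RNA was 286 and 274 in MDA-Par and 141 and 112 in MDA-LM2, and both MDA-LM2 libraries were far below both parental ones. It fell by 1.15 on the log2 scale (standard error 0.15, 95% interval of the change -1.51 to -0.79, limma adjusted p = 0.00408), to 45.2% of the parental mean. HMOX1 footprints were 35.7 and 35.1 in MDA-Par and 14.3 and 18.0 in MDA-LM2, and they fell by 1.09 (standard error 0.28, limma adjusted p = 0.00704), to 45.7%. The TE difference was 0.06 with an interval of -0.57 to 0.68. HMOX1 had the largest change of the 8 members in this comparison in RNA and in footprints, and its RNA and footprint calls held without each of the 4 lysates in turn. In the knockdown table, HMOX1 RNA was 39.2 and 43.5 in MDA-sgCTRL and 44.2 and 47.8 in MDA-sgHNRNPC, and its footprints were 7.60 and 8.35 against 13.3 and 9.39. Both measures were higher in both knockdown libraries. Fitted without a minimum, the differences were 0.15 (95% interval -0.32 to 0.63) and 0.45 (-0.38 to 1.27), with limma adjusted p = 0.777 and 0.865.

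NFE2L2 encodes NRF2, whose abundance is set mainly by degradation of the protein, which neither kind of library measures. NFE2L2 RNA was 324 and 341 in MDA-Par and 297 and 365 in MDA-LM2, and its footprints were 113 and 94.7 against 93.9 and 109. The lines overlapped in both, with an RNA difference of -0.01 (95% interval -0.34 to 0.31) and a footprint difference of -0.03 (-0.33 to 0.27). The sign of both turned with libraries rescaled to equal totals, to 0.16 and 0.02. In the HNRNPC knockdown libraries, NFE2L2 RNA was 480.0 and 447 in MDA-sgCTRL and 493 and 456 in MDA-sgHNRNPC, with a difference of 0.03 (-0.12 to 0.19), and the footprints, 28.1 and 34.1 against 30.1 and 27.7, overlapped.

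**Figure D2:**
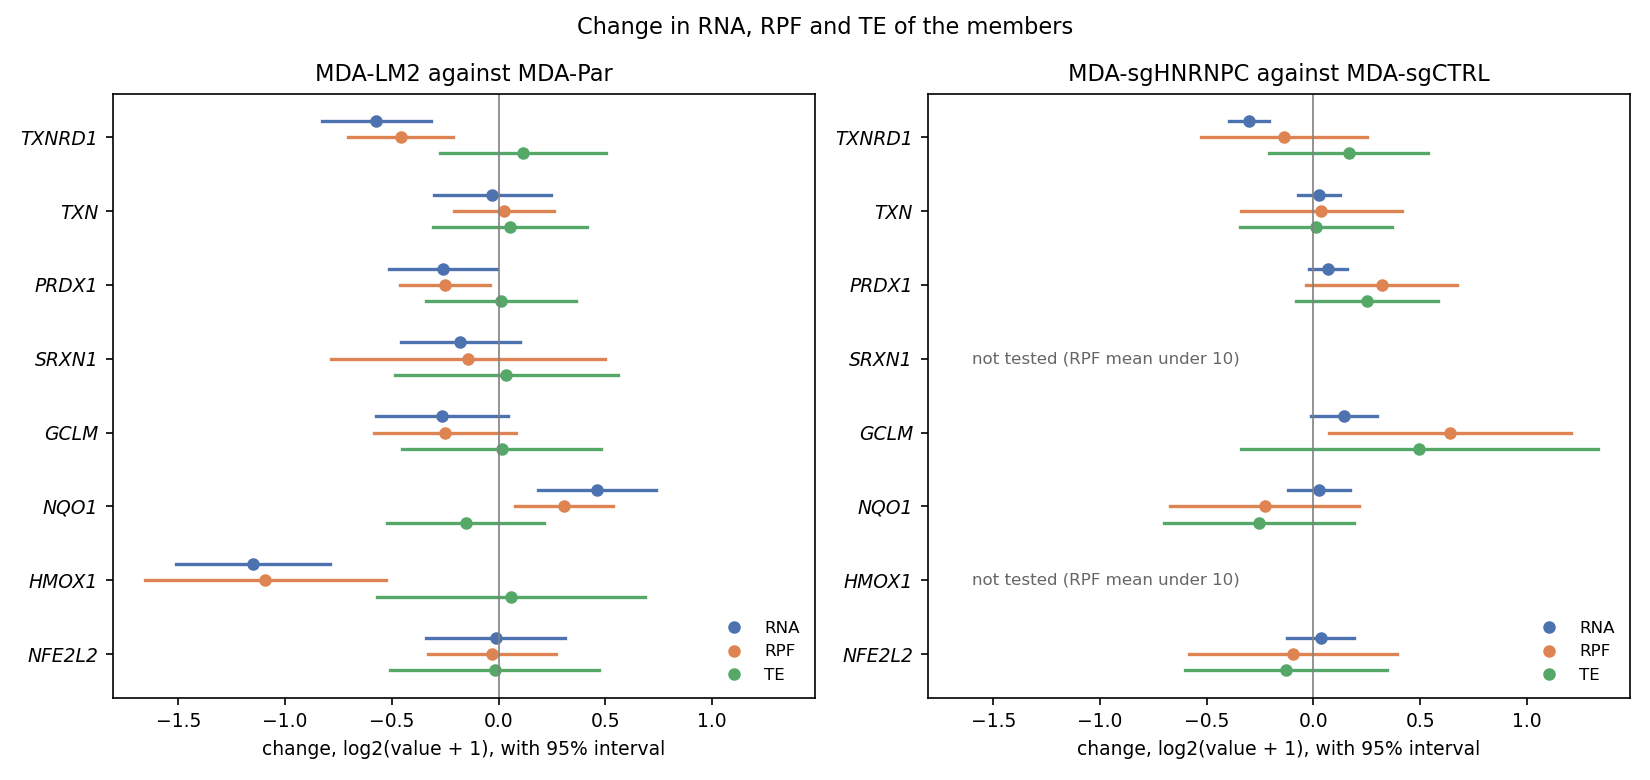
Change of each member in RNA, RPF and TE on the log2(value + 1) scale (horizontal axis), for MDA-LM2 against MDA-Par (left) and MDA-sgHNRNPC against MDA-sgCTRL (right). Points are limma estimates and lines 95% intervals. In MDA-LM2 the intervals of HMOX1, TXNRD1 and PRDX1 lie below 0 and those of NQO1 above 0 in RNA and RPF, and all 8 TE intervals include 0.

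TXNRD1 was left out of the counts of members, since its RNA was known when it was named. Of the other 7 members in MDA-LM2 against MDA-Par, 2 were called in RNA at a limma adjusted p under 0.05, HMOX1 lower and NQO1 higher, where 15.2% of the 8393 genes tested were called. In footprints, 1 of 7 was called, HMOX1, where 12% of all genes were. In TE, 0 of 7 were called by limma, where 0.0357% of all genes were, 0 of 7 by logistic regression, where 2.16% were, and 0 of 7 had an unadjusted p under 0.05, where 5.42% had. The libraries of the lines did not overlap for 5 of 7 members in RNA, against 62.1% of all genes, and for 4 of 7 in footprints, against 53.3%. In RNA, 1 of 7 was called without the first MDA-Par lysate, where 5.86% of all genes were, and 1 of 7 without the second, where 6.98% were. Without the first MDA-LM2 lysate 5 of 7 were called, where 50.5% of all genes were, and without the second 3 of 7, where 33.7% were. In footprints 2 of 7 were called without the first MDA-LM2 lysate, where 9.51% of all genes were. The median change of the 7 members was -0.18 in RNA, -0.14 in footprints and 0.01 in TE, and over all genes tested it was -0.02, -0.01 and 0.03.

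The scale mattered for direction here: once each library was set to the same total, the median over all genes shifted by 0.17 in RNA and by -0.12 in TE. The share of RNA calls that were higher in MDA-LM2 went from 38.1% to 66.6%, and that of footprint calls from 41.6% to 54.3%. On that scale TXNRD1 was at -0.40 in RNA and HMOX1 at -0.98, while NQO1 was at 0.63. A single transcript that is no member took 3.47% to 5.83% of the RNA total of these libraries, and its part in the shift was not tested.

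In MDA-sgHNRNPC against MDA-sgCTRL, 0 of the 5 members tested beside TXNRD1 were called in RNA by limma, where 16% of the 4283 genes tested were, and 0 of 5 had an unadjusted p under 0.05, where 27.8% had. In footprints 0 of 5 were called by limma, where 0.0233% of genes, or 1 gene, was called, and 1 of 5, GCLM, had an unadjusted p under 0.05, where 7.68% of all genes had. In TE 0 of 5 were called by limma, where 0% of all genes were, 0 of 5 by logistic regression, where 0.257% were, and 0 of 5 had an unadjusted p under 0.05, where 7.75% had. The groups did not overlap for 1 of 5 members in RNA, against 54.8% of all genes, and for 3 of 5 in footprints, against 37.9%. The median RNA change of the 5 members was 0.03, and that of all genes -0.04. Apart from TXNRD1, the RNA intervals of the members tested in the knockdown stayed within -0.12 and 0.30.

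Levels can be compared between genes only per length, as the RNA value per kilobase of transcript and the RPF value per kilobase of coding sequence. In MDA-Par, TXN had the highest RNA level per kilobase (1974 ± 117, SD, n = 2), followed by PRDX1 (1332 ± 14.2), NQO1 (539.6 ± 30.9), TXNRD1 (511 ± 14.0), SRXN1 (267 ± 3.52), HMOX1 (180.0 ± 5.43), NFE2L2 (136 ± 4.70) and GCLM (93.8 ± 12.6). NQO1 and TXNRD1 overlapped, and the other neighbours did not. TXNRD1 RNA stood at percentile 85.3 of the 8208 genes tested that have a length, and GCLM at 45.6. In MDA-LM2 the order was the same down to SRXN1, with TXNRD1 at 344 ± 17.7 and NQO1 at 744 ± 65.8, no longer overlapping, and HMOX1 (81.3 ± 13.3) moved below NFE2L2 (135 ± 19.8) to overlap with GCLM (77.7 ± 0.0114).

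In footprints per kilobase, PRDX1 (629 ± 59.2) and TXN (624 ± 7.91) overlapped at the top in MDA-Par, NQO1 followed with 240.0 ± 4.88, and HMOX1 was lowest with 40.8 ± 0.481. TE per length, the ratio of both levels, was highest for GCLM, at 1.04 ± 0.121 in MDA-Par and 1.05 ± 0.115 in MDA-LM2, or percentiles 93.0 and 93.6 of all genes. It was 0.239 ± 0.0462 and 0.256 ± 0.00825 for TXNRD1, near the medians of all genes of 0.258 and 0.262. SRXN1 was lowest of the 8, at 0.177 ± 0.0241 and 0.180 ± 0.0115. The members therefore spanned from below to far above the median in TE per length, while none of them passed the test of a TE difference between the lines. The order rests on the full annotated length of each transcript. GCLM has 3791 of its 4883 bases in the 3′ untranslated region (UTR), and the length expressed in these cells was not measured here.

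In MDA-sgCTRL, TXN (2056 ± 138) and PRDX1 (1739.9 ± 2.10) again had the highest RNA per kilobase, but the order below them differed from that in MDA-Par. TXNRD1 (576 ± 30.9) stood above NQO1 (224 ± 10.8), followed by NFE2L2 (190 ± 9.53). SRXN1 (104 ± 1.15) and GCLM (97.7 ± 8.68) came next and overlapped, with HMOX1 last. HMOX1 RNA was 26.6 ± 1.94 per kilobase in MDA-sgCTRL, percentile 2.22 of the genes tested there, and 180.0 ± 5.43 in MDA-Par, percentile 64.6. NQO1 RNA was 224 ± 10.8 in MDA-sgCTRL, percentile 68.0, and 539.6 ± 30.9 in MDA-Par, percentile 86.2. For TXNRD1 the RNA percentiles were 89.3 and 85.3. MDA-sgCTRL and MDA-Par are both controls of MDA-MB-231 origin, but their tables were scaled separately and hold different sets of genes, so these values stand side by side without a test. GCLM again had the highest TE per length among the 6 members tested, 0.263 ± 0.0640 in MDA-sgCTRL and 0.383 ± 0.132 in MDA-sgHNRNPC, overlapping with NQO1 (0.223 ± 0.00903) in MDA-sgCTRL, and TXNRD1 the lowest, 0.0531 ± 0.00532 and 0.0593 ± 0.00113.

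**Figure D3:**
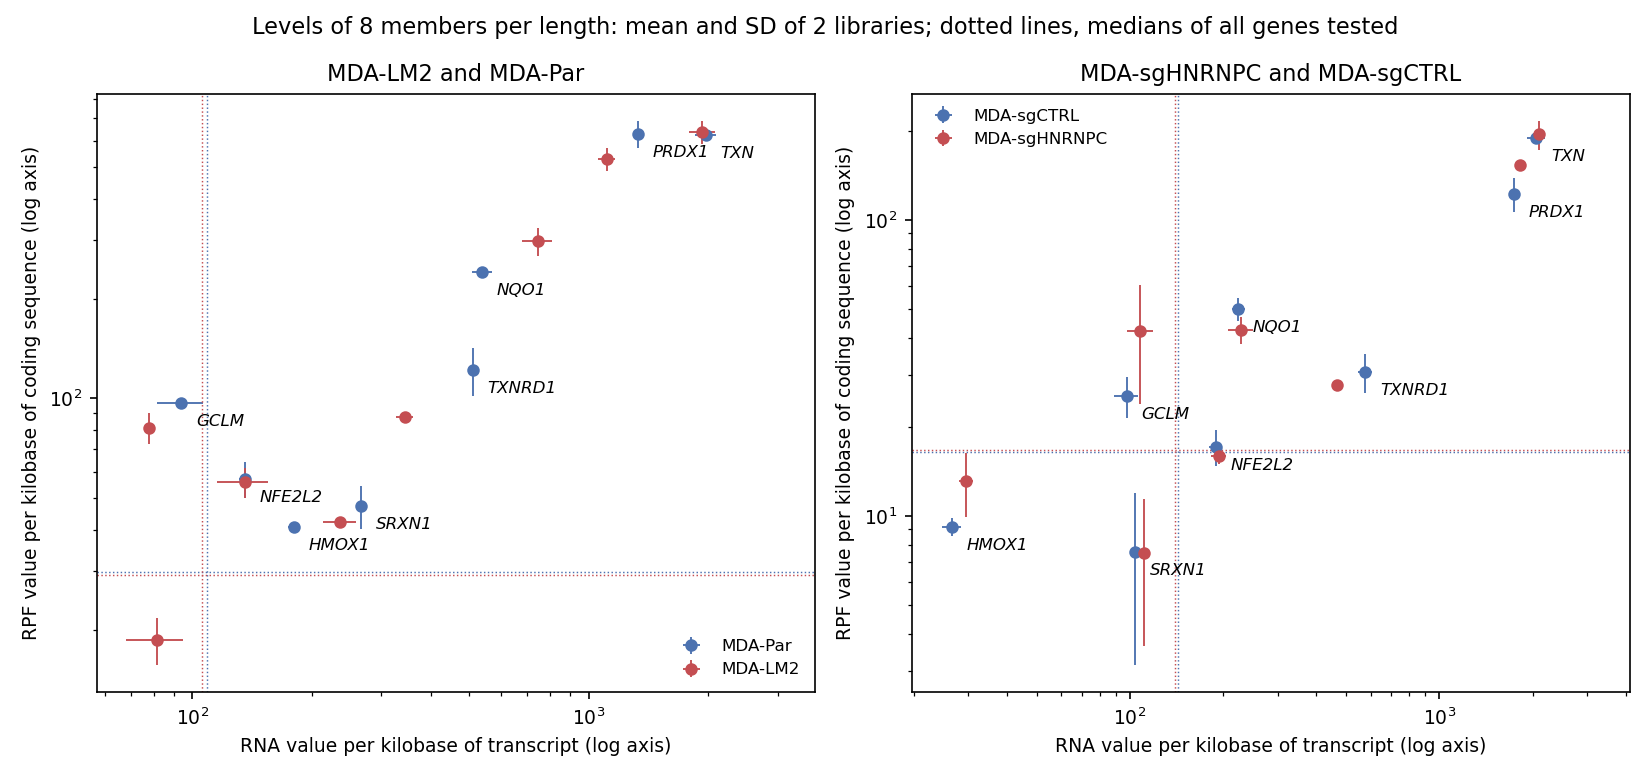
RNA value per kilobase of transcript (horizontal) against RPF value per kilobase of coding sequence (vertical), both on log axes, for the 8 members. Points are means and lines SDs of 2 libraries, labels stand beside the control line's point, and dotted lines are the medians of all genes tested. TXN and PRDX1 are at the top in both tables, and the MDA-LM2 point of HMOX1 (81.3 and 18.6) lies below both medians.

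The wider pathway was described by 68 further genes, of which 62 were listed and 55 tested in the first table and 58 listed and 40 tested in the second. In MDA-LM2, 5 of the 55 rose and 5 fell in RNA, 4 rose and 8 fell in footprints, and 0 were called in TE. The share called in RNA or footprints in either direction over all genes was 15.2% and 12%. The median changes were -0.11 in RNA and -0.12 in footprints. Genes beyond the 10 with the largest changes are named here because the counts are small, and were chosen after their values were seen.

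Thioredoxin reductase and glutathione reductase draw on the NADPH supply. It had 2 of 5 genes called lower in RNA, where 9.44% of all genes were, and 2 of 5 in footprints, where 7.03% were. PGD, an NADPH-producing dehydrogenase of the pentose phosphate pathway, had RNA of 2207 and 2135 in MDA-Par and 1195 and 966 in MDA-LM2, and fell by 1.01 in RNA (limma adjusted p = 0.00378) and by 0.69 in footprints (limma adjusted p = 3.32e-05). IDH1 was called in RNA (-0.47, limma adjusted p = 0.0453) and not in footprints (-0.35, limma adjusted p = 0.206). TKT was called in footprints (-0.33, limma adjusted p = 0.0149) and not in RNA (-0.38, limma adjusted p = 0.159). Whether RNA and footprints differ for these genes was tested as TE, which passed for neither.

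Among the other NRF2 targets, 2 of 16 rose and 2 fell in RNA, and 2 rose and 4 fell in footprints. AKR1C1, an aldo-keto reductase, had RNA of 7.75 and 14.0 in MDA-Par and 60.1 and 54.1 in MDA-LM2, a difference of 2.34. AKR1C1 footprints were 4.19 and 2.42 against 23.0 and 20.4, a difference of 2.43. It passed the minimum only through its MDA-LM2 footprints, so these differences are a description without p-values. Its relative AKR1C3 had RNA of 34.3 and 42.0 against 128 and 124, and rose by 1.70 in RNA (limma adjusted p = 0.00176) and by 2.21 in footprints (limma adjusted p = 1.04e-06). Both have near-identical relatives, among them AKR1C2, which matched no listed transcript, so how reads were shared between them is uncertain. ABCC3, an efflux pump of glutathione and glucuronide conjugates, had RNA of 245 and 244 against 71.4 and 55.9, a difference of -1.93. ABCC3 footprints were 21.8 and 20.4 against 7.22 and 6.84, a difference of -1.46. It passed the minimum only through its MDA-Par footprints, so these differences too are a description. The ABCC3 footprint difference was -1.42 without the first MDA-Par lysate. The counts above, of this list and of all pathway genes, include AKR1C1 as a rise and ABCC3 as a fall in RNA and in footprints. To that extent these counts rest on genes that are given only as a description. BLVRA, biliverdin reductase, which acts on the product of HMOX1, fell by 0.78 in RNA (limma adjusted p = 0.0158) and by 0.98 in footprints (limma adjusted p = 0.00214), its RNA call being lost without the first MDA-Par library (-0.66, limma adjusted p = 0.112).

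FTL and FTH1, the light and heavy subunits of ferritin, which stores iron, have a translation that is known to respond to iron. FTL footprints were 97.2 and 114 in MDA-Par and 38.6 and 38.7 in MDA-LM2, and FTH1 footprints 84.4 and 108 against 30.9 and 41.6. FTL footprints fell by 1.42 (limma adjusted p = 2.4e-07) and FTH1 footprints fell by 1.39 (limma adjusted p = 2.07e-06). FTL RNA was 17958 and 18102 against 14900.4 and 8168, with the MDA-LM2 libraries far apart, and its RNA change of -0.71 did not pass (limma adjusted p = 0.111). It passed without the first MDA-LM2 lysate (-1.14) and without the second (-0.28). FTH1 RNA changed by -0.33 (limma adjusted p = 0.169), and passed without the second MDA-LM2 lysate (-0.51). The TE changes were -0.71 for FTL (95% interval -1.32 to -0.09, limma adjusted p = 0.89) and -1.06 for FTH1 (-1.57 to -0.55, limma adjusted p = 0.423). That of FTL was -0.27 without the first MDA-LM2 lysate and -1.14 without the second. Logistic regression, which does not use the spread between replicates, called both (FTL -0.80, adjusted p = 0.00334, FTH1 -1.09, adjusted p = 1.57e-05).

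In the glutathione system, 2 of 13 genes rose and 1 fell in RNA, and the same numbers were found in footprints. GPX8, a glutathione peroxidase of the endoplasmic reticulum, had RNA of 265 and 293 in MDA-Par and 436 and 453 in MDA-LM2, and rose by 0.67 in RNA (limma adjusted p = 0.0122) and by 0.83 in footprints (limma adjusted p = 0.00931). Its RNA call was lost without the first MDA-Par lysate (0.60, limma adjusted p = 0.145) and its footprint call without the second (0.36, limma adjusted p = 0.315). SLC3A2, the heavy chain of the cystine transporter, rose in RNA (0.49, limma adjusted p = 0.0253) and footprints (0.39, limma adjusted p = 0.00801), while SLC7A11, its light chain, fell in footprints (-0.60, limma adjusted p = 0.00605). The SLC7A11 footprint call was lost without the first MDA-Par lysate (-0.53). GPX4, a selenoprotein that reduces lipid peroxides, had RNA of 4093 and 4076 against 3128 and 2219 and fell by 0.63 (limma adjusted p = 0.0465). This call was lost with libraries rescaled to equal totals (-0.46, limma adjusted p = 0.0504) and without the first (-0.63, limma adjusted p = 0.192) or the second (-0.64, limma adjusted p = 0.163) MDA-Par library.

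Of the 8 genes of NRF2 control tested, BACH1 rose in RNA (0.51, limma adjusted p = 0.0336), and SQSTM1, an adaptor that sequesters KEAP1, fell in footprints (-0.40, limma adjusted p = 0.00482). The thioredoxin and peroxiredoxin system beside the members had 0 of 9 genes called in RNA and 0 of 9 in footprints. The other antioxidant enzymes had 0 of 4 called in either, with SOD2 listed as 2 transcripts.

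In the knockdown, 3 of the 40 pathway genes tested rose and 6 fell in RNA, against 16% of all genes called, and 0 were called in footprints or TE. In RNA, the NADPH supply had 3 of 4 tested genes called lower, where 11.3% of all genes were. IDH1 fell by 0.31 (limma adjusted p = 0.0215), TALDO1 by 0.29 (limma adjusted p = 0.00354) and TKT by 0.25 (limma adjusted p = 0.0012). PGD RNA, which fell in MDA-LM2, changed by -0.05 here (limma adjusted p = 0.638). TALDO1 footprints were higher in both knockdown libraries, at 65.3 and 75.9 against 47.2 and 63.1 in MDA-sgCTRL. Their change was 0.36 (limma adjusted p = 0.701), and the TALDO1 TE change was 0.65 (interval 0.16 to 1.14, limma adjusted p = 0.57). Neither passed. The footprint changes of IDH1, TKT and PGD were -0.14, -0.13 and 0.10. IDH1 lost its call without the second MDA-sgCTRL library (-0.23, limma adjusted p = 0.194) or the second MDA-sgHNRNPC library (-0.17, limma adjusted p = 0.475). In the glutathione system SLC7A11 RNA was 845 and 822 in MDA-sgCTRL and 650.1 and 638 in MDA-sgHNRNPC, and fell by 0.37 (limma adjusted p = 4.15e-06), GLRX3 fell by 0.38 (limma adjusted p = 0.0124) and SLC3A2 rose by 0.35 (limma adjusted p = 0.000377). ABCC1, another efflux pump, fell by 0.28 (limma adjusted p = 0.0239). GLRX3 lost its call without the second MDA-sgCTRL library (-0.25, limma adjusted p = 0.241), the first MDA-sgHNRNPC library (-0.39, limma adjusted p = 0.0589) or the second (-0.37, limma adjusted p = 0.0858). ABCC1 lost it without the first MDA-sgCTRL library (-0.25, limma adjusted p = 0.155), the first MDA-sgHNRNPC library (-0.26, limma adjusted p = 0.142) or the second (-0.31, limma adjusted p = 0.0862).

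The ferritin genes rose in RNA in the knockdown, FTL by 0.50 (limma adjusted p = 3.64e-17) and FTH1 by 0.36 (limma adjusted p = 3.21e-12), from 3992 and 4513 to 5878 and 6096 for FTL and from 6037 and 6078 to 7543 and 7987 for FTH1. Their footprints, with changes of 0.16 and 0.17, did not pass (limma adjusted p = 0.903 and 0.906). SLC7A11 footprints were 22.4 and 25.1 against 11.3 and 12.5, lower in both knockdown libraries, with a change of -0.94 (95% interval -1.59 to -0.29) that did not pass (limma adjusted p = 0.467). Its TE change of -0.57 (95% interval -1.01 to -0.12) did not pass either (limma adjusted p = 0.573).

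**Figure D4:**
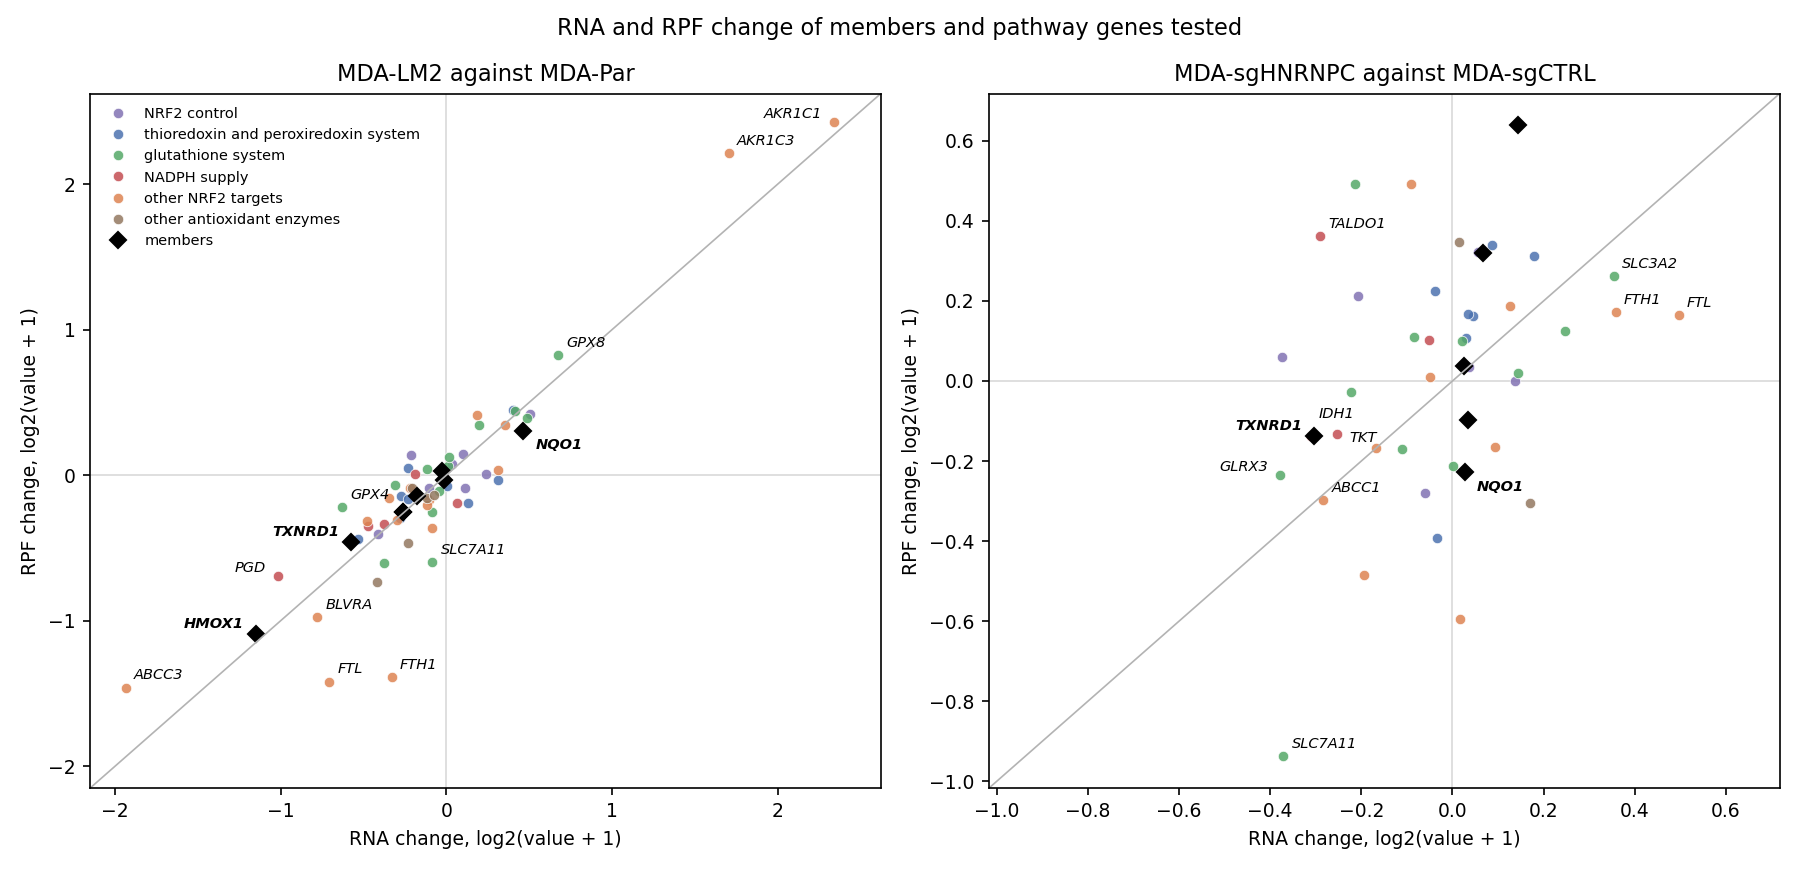
RNA change (horizontal) against RPF change (vertical), both on the log2(value + 1) scale, for members (black diamonds) and pathway genes tested (circles, coloured by list), in MDA-LM2 (left) and in the HNRNPC knockdown (right). The diagonal marks equal change, and axes differ between the panels. FTL (-0.71, -1.42, its RNA value being -1.14 or -0.28 without 1 or the other MDA-LM2 lysate) and FTH1 (-0.33, -1.39) lie below the diagonal in MDA-LM2, while PGD, HMOX1 and TXNRD1 lie near it.

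The RNA pattern of TXNRD1 over the 8 RNA libraries was compared with that of 4234 genes tested in both tables, as the root mean square log2 difference after each gene was centred within its table. The closest were PC, pyruvate carboxylase (0.0458), GALNT10, an enzyme of mucin-type glycosylation (0.0540), and CTTN, the actin regulator cortactin (0.0553), where the median over all genes was 0.246. PC RNA was 1299 and 1224 in MDA-Par, 834 and 832 in MDA-LM2, 165 and 159 in MDA-sgCTRL, and 132 and 140.4 in MDA-sgHNRNPC. That PC, GALNT10 and CTTN were lower in the test lines, like TXNRD1, follows from how they were picked and is no separate result. GALNT10 RNA was 3512 and 3529 in MDA-Par and 2371 and 2357 in MDA-LM2, and 1547 and 1557 against 1345 and 1329 in the knockdown table. CTTN RNA was 2673 and 2503 against 1547 and 1731, and 1251 and 1265 against 1059.97 and 1086. None of the 3 is in the pathway lists.

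**Figure D5:**
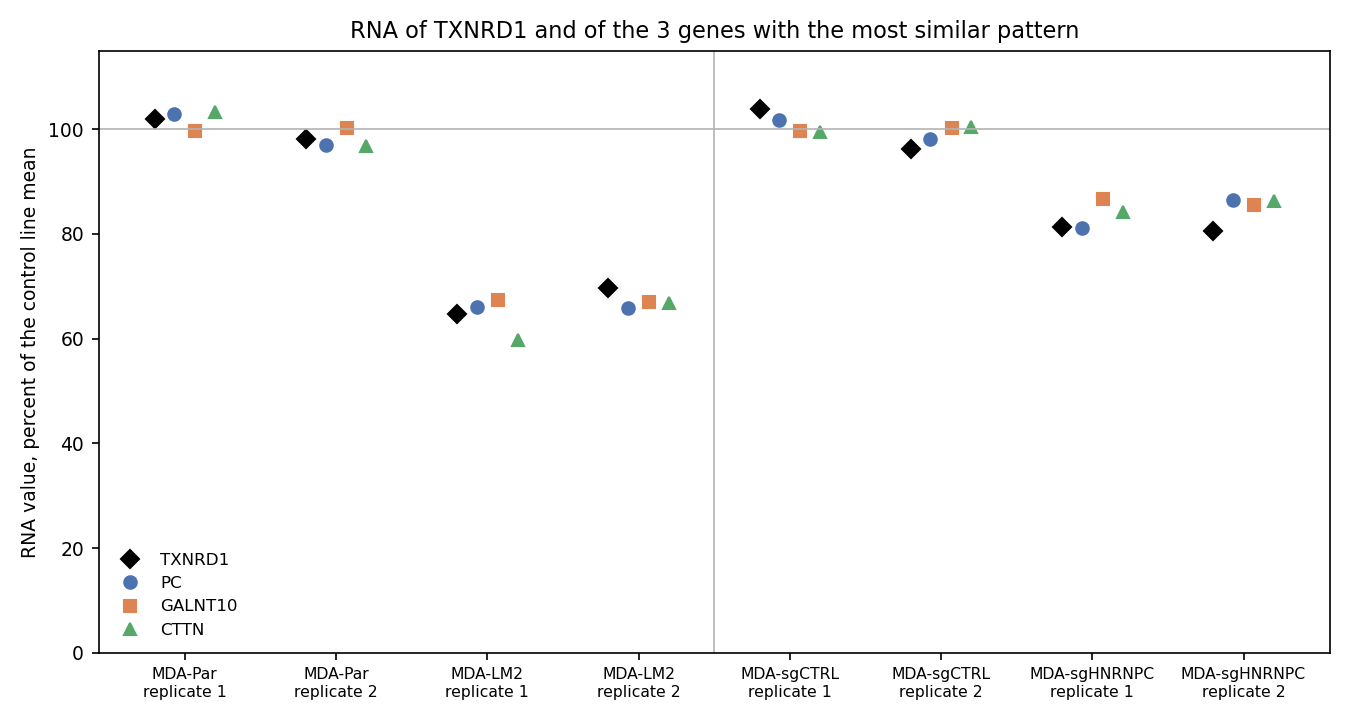
RNA value in each of the 8 RNA libraries, as a percent of the mean of that table's control line (vertical axis from 0), for TXNRD1 (diamonds), PC (circles), GALNT10 (squares) and CTTN (triangles). PC, GALNT10 and CTTN were picked for their likeness to TXNRD1 in these libraries, so all 4 genes lie below 100 in each MDA-LM2 and MDA-sgHNRNPC library. TXNRD1 is at 67.2% and 81.0% on average.

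The antioxidant response element was looked for as its core TGACNNNGC, on both strands, in the RefSeq promoter windows of GRCh38.p14, which run from 250 bases before to 50 after a transcription start. The windows of GCLC, GCLM, NFE2L2, NQO1, SRXN1, TXN and TXNRD1 were searched. The core was present in windows of TXNRD1 and GCLM, and in 4687 of all 35116 windows, or 13.3%. No match says only that these letters are not in the window, since known elements of several NRF2 targets lie further from the start. TXNRD1 has windows at 2 starts, and the first holds the core on both strands, at chr12:104215671-104215697 and chr12:104215762-104215788, and the second on the opposite strand at chr12:104286921-104286947. The GCLM match is at chr1:93909447-93909473, on the opposite strand to the gene, 34 bases before the start. They are shown because these are the members that carry the letters in the windows searched. Capitals mark the core or its reverse complement, and each sequence is given on the gene's strand.
TXNRD1 first start, upstream match: cacgggctaTGACTTCGCtgttgtcac
TXNRD1 first start, match nearest the start: cgtccttcgGCTCCGTCAgttcccaca
TXNRD1 second start: tggatttctGCTTTGTCAttctgactc
GCLM: acgatttctGCTTAGTCAttgtcttcc

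Since HNRNPC prefers runs of U, the 3′ UTRs of the listed transcripts were searched on the transcript strand for a C followed by 6 T (U in the RNA). Runs of T after another base were not counted. TXNRD1, GCLM, NQO1 and NFE2L2 hold 1 site of a C and 6 T each, and TXN, PRDX1, SRXN1 and HMOX1 hold 0. Among the genes tested, 43.4% of the 8177 with a 3′ UTR in the first table hold at least 1, and 42.0% of the 4176 in the second. The 4 sites, with the C and the 6 T in capitals, lie in hg38 at chr12:104348784-104348810 on the plus strand for TXNRD1 and, on the minus strand, at chr1:93886429-93886455 for GCLM, chr16:69710345-69710371 for NQO1 and chr2:177230410-177230436 for NFE2L2.
TXNRD1: gaatttttttCTTTTTTctccatggtg
GCLM: atgttcacatCTTTTTTtcatgaacta
NQO1: cagtcatctaCTTTTTTtttaattaaa
NFE2L2: ccactatgtaCTTTTTTataaatactg
In the knockdown, the RNA changes of these 4 were -0.30, 0.14, 0.03 and 0.03 and their TE changes 0.16, 0.50, -0.25 and -0.13. TXN and PRDX1, the members without a site that were tested there, had RNA changes of 0.03 and 0.07 and TE changes of 0.01 and 0.25. None of the 6 TE changes passed the test.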

How the data were processed

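RNA and footprint libraries of 4 lines, 2 lysates each, were analysed, grouped by their titles. The authors deposited a signal for each transcript: reads were trimmed with cutadapt 2.3 and aligned with Bowtie2 2.3.5 (hg38, per the labels' processing notes) to 1 mRNA per gene, and the counts of the RNA and of the footprint libraries were each scaled by their own median-of-ratios factors. A correction of footprint peaks described in their methods is not stated for these files, so footprint depth is unknown. Transcripts were matched to GENCODE version 44. The members and the pathway lists were chosen with earlier results of these data known. 1 gene of these lists is not reported here. Named pathway genes were up to 10 per comparison with the largest absolute change among those called.

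Values were transformed as log2(value + 1), which understates changes of low genes, and genes with means of at least 10 in RNA and in footprints were tested with limma 3.58.1 in R 4.3.3 (lmFit, eBayes with trend, two-sided). RNA and footprints were fitted on their own 4 libraries and TE as an interaction over 8. A call is a Benjamini-Hochberg adjusted p under 0.05 over all genes tested. Intervals are 95% and from the fit. Figures and summaries used matplotlib 3.10.9 and pandas 2.3.3 (numpy 2.4.6, Python 3.11.15). The fits were tested on simulated data. Alternatives were an added value of 0.5 or 5, no minimum, libraries rescaled to equal totals, a replicate block, leaving out each lysate, TE within lysates, and logistic regression of read kind on line as in the study.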

Additional observations from a re-analysis of the deposited data

Results flagged for a closer look

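Members whose libraries all moved one way in MDA-LM2 and all the other way in the HNRNPC knockdown were looked for, and 7 pairs of member and measure were found. The difference between the comparisons was not tested in any of them, since the tables were scaled separately, and HMOX1 in MDA-LM2 is the only member among them with a change that passed its own test. HMOX1 RNA changed by -1.15 in MDA-LM2 and 0.15 in the knockdown, and HMOX1 footprints by -1.09 and 0.45. PRDX1 RNA changed by -0.26 and 0.068, and PRDX1 footprints by -0.25 and 0.32. GCLM footprints changed by -0.25 and 0.64. SRXN1 RNA changed by -0.18 and 0.093. NQO1 footprints ran the other way round, 0.31 in MDA-LM2 and -0.23 in the knockdown. HMOX1 and SRXN1 fell short of the minimum for testing in the knockdown. Groups of 2 that do not overlap, in either direction, are common among all genes tested. Their share was 62.1% in MDA-LM2 RNA, 53.3% in MDA-LM2 footprints, 54.8% in knockdown RNA and 37.9% in knockdown footprints. How many of all genes moved opposite ways in the 2 comparisons was not counted, so the 7 pairs are a description only.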

How the results depend on the processing

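With another added value, without a minimum, and with TE taken within lysates, the members kept their direction. Calls are not given for TXNRD1, and the other members also kept their side of the threshold. Libraries rescaled to equal totals turned the sign of uncalled changes of members in MDA-LM2: TXN (0.14) and NFE2L2 (0.16) in RNA, NFE2L2 (0.023) in footprints, and TXN (-0.059), GCLM (-0.10), HMOX1 (-0.059), SRXN1 (-0.081) and PRDX1 (-0.10) in TE. It also turned the uncalled RNA change of SLC7A11 (0.085) and the TE change of AKR1C1 (-0.025), the latter as did an added value of 5 (-0.30), which turned that of ABCC1 in the knockdown (0.020). Replicate numbers are shared by the lines, and the labels do not say whether they pair the samples. Deviations of same-numbered libraries correlated at 0.23 in RNA and 0.04 in footprints of the first table, and at -0.004 and 0.03 in the second. The main fits ignore the numbers, and a replicate block moved the RNA calls over all genes in MDA-LM2 from 1279 to 1775. With the replicate block, 4 members, TXNRD1 included, were called in MDA-LM2 footprints (NQO1 and PRDX1 added), FTL passed in RNA (adjusted p = 0.0463) and FTH1 in TE (adjusted p = 0.0399), 5 of all genes were called in TE, and 12 in knockdown footprints; no other member changed its call.

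Of all genes, TE calls in MDA-LM2 were 3, and 0 without a minimum, with equal totals or within lysates, and 181 by logistic regression, which called 11 in the knockdown. Knockdown footprint calls were 1, and 0 without a minimum and 2 with equal totals. Each of the 4 lysates of a comparison was also left out in turn. With TXNRD1 not counted, this concerns 7 of the 8 members tested in MDA-LM2 and 5 of the 6 in the knockdown. The fits called 1 to 5 of the 7 in MDA-LM2 RNA, 1 to 2 in footprints, and 0 to 1 of the 5 in knockdown footprints. Over all genes they called 492 to 4235 in MDA-LM2 RNA, 641 to 855 in footprints and 0 to 7 in TE. In the knockdown they called 371 to 569 of all genes in RNA and 0 to 41 in footprints. A line left with 1 library is assumed to vary like the other, so these counts follow the spread of the remaining pair.

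Uncalled changes that turned sign when a lysate was left out ranged as follows. In MDA-LM2 RNA, TXN ranged from -0.11 to 0.047 and NFE2L2 from -0.16 to 0.14. In MDA-LM2 footprints, TXN ranged from -0.058 to 0.11, SRXN1 from -0.29 to 0.0017 and NFE2L2 from -0.16 to 0.094. In MDA-LM2 TE, TXNRD1 ranged from -0.082 to 0.31, TXN from -0.10 to 0.22, GCLM from -0.10 to 0.13, NQO1 from -0.34 to 0.033, HMOX1 from -0.27 to 0.38, SRXN1 from -0.10 to 0.17, PRDX1 from -0.074 to 0.10, NFE2L2 from -0.18 to 0.14, AKR1C1 from -0.60 to 0.78 and GPX8 from -0.39 to 0.70. In the knockdown, RNA ranged from -0.043 to 0.095 for TXN, -0.066 to 0.12 for NQO1 and -0.022 to 0.089 for NFE2L2, footprints from -0.29 to 0.016 for TXNRD1, -0.076 to 0.15 for TXN, -0.23 to 0.039 for NFE2L2 and -0.031 to 0.38 for FTH1, and TE from -0.15 to 0.17 for TXN, -0.32 to 0.057 for NFE2L2, -0.15 to 0.43 for GLRX3, -0.17 to 0.15 for ABCC1 and -0.029 to 0.27 for TKT. The cause was not tested in any of these. The test of recovered reads by a count model was not run. With 2 libraries a group and low footprint values in the knockdown, TE intervals of the members there span from 0.67 (PRDX1) upwards on the log2 scale.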
